A study of Mus musculus with 6 samples.

Results

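The genes examined here were 39 genes of glucose metabolism and of the response to low oxygen, measured by RNA-seq in the colon epithelium of 3 Zfp90fl/fl mice and 3 Zfp90ΔIEC mice after AOM-DSS treatment. They were given by a list of symbols, and all 39 were among the 52550 genes listed in the files. Of these, 37 had at least 1 FPKM, a fragment count scaled to transcript length in kilobases and to depth in M fragments, in at least 3 of the 6 samples and were tested between genotypes, beside 11564 genes tested in all. The comparison asked whether deletion of *Zfp90*, which encodes a zinc finger protein, was accompanied by different mRNA levels of these genes.

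All mice were male C57BL/6 mice of 6 to 8 weeks per the labels. They received a single injection of 10 mg/kg azoxymethane (AOM), a carcinogen, and then 3 cycles of 2% dextran sulfate sodium (DSS), a compound that injures the colon, given for 7 days and followed by 14 days of plain water, with collection on day 80. The DSS concentration is that of the labels, and the paper gives another one. Zfp90fl/fl mice carried floxed *Zfp90* alleles and were the littermate controls. Zfp90ΔIEC mice carried the same alleles together with Villin-cre, which drives recombination in epithelial cells of the intestine, so that *Zfp90* stayed intact in other cells. No group without AOM-DSS was measured here, and both genotypes share this treatment. Mice were housed by genotype after weaning, and the effects of cage and of genotype therefore cannot be told apart. The genotype field of Zfp90ΔIEC replicates 2 and 3 names *Zfp91* and *Zfp92*, and these samples were grouped by their titles. Nothing in the labels says more about the replicates than their numbers, and each was taken as 1 mouse.

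Glycolysis splits glucose into pyruvate through a chain of cytosolic enzymes, several of which exist as isozymes encoded by separate genes. The pentose phosphate pathway branches off after the first phosphorylation and yields NADPH and ribose phosphate. When oxygen is scarce, the factors HIF-1α and HIF-2α escape hydroxylation by prolyl hydroxylases, bind short promoter and enhancer elements and increase transcription of glycolytic enzymes, angiogenic factors and the hydroxylases themselves. Colonocytes near the lumen live at low oxygen tension in healthy tissue, and many tumors rely heavily on glycolysis.

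The 3 Zfp90fl/fl mice had 0.630, 0.490 and 0.569 FPKM of *Zfp90*, and the 3 Zfp90ΔIEC mice had 0.0846, 0.195 and 0.166 FPKM, with no overlap. Being under 1 FPKM in all 6 samples, *Zfp90* was not tested in the main fit. Without the filter its adjusted p was 0.123 from limma. Depth was not given by the files and was estimated at 26.2 to 28.7 M fragments per sample from the step between low values. Epithelial markers such as *Epcam* and *Krt8* summed to 4190 to 4702 FPKM in Zfp90fl/fl mice and to 4214 to 4551 FPKM in Zfp90ΔIEC mice. The summed level of each list of fibroblast, endothelial, smooth muscle and erythroid markers stayed between 0.120 and 1.15 FPKM in every sample, and the endothelial marker *Emcn* was listed at 0 in all 6. The 10 leukocyte markers summed to 31.9 to 35.7 FPKM in Zfp90fl/fl mice and to 15.3 to 18.4 FPKM in Zfp90ΔIEC mice without overlap, most of it *Cd14*. Without *Cd14* and *Lyz2* the sum was 3.57 to 4.81 FPKM against 0.757 to 1.11 FPKM, and the neutrophil markers *S100a8* and *S100a9* were listed at 0 in all 3 Zfp90ΔIEC mice. The 6 proliferation markers summed to 87.8 to 93.5 FPKM against 108 to 119.5 FPKM, also without overlap. The 6 surface colonocyte markers summed to 4561 to 6222 FPKM against 6941 to 10816 FPKM, most of it *Car1*. Without *Car1* the sums overlapped. Taken singly, *Car1*, *Slc26a3* and *Aqp8* were higher in Zfp90ΔIEC mice without overlap, whereas *Krt20*, *Car4* and *Ceacam20* overlapped. Among the markers tested, *Cd14* and *Mki67* had an adjusted p under 0.05 (0.0219 and 0.0478 from limma). The leukocyte, proliferation and surface colonocyte sums moved with genotype beside every member difference given below. Their part in those differences was not tested. Because the samples are bulk RNA, fewer cells of a type and less RNA per cell cannot be told apart.

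No member passed the test. In limma with Benjamini-Hochberg adjustment over all 11564 genes, 0 of the 37 members had an adjusted p under 0.05, while 0.199% of all genes tested did. An unadjusted p under 0.05 was found for 10 members (27.0%), against 14.6% of all genes tested. Of these 10, 6 were lower in Zfp90ΔIEC mice (*Hk2*, *Pfkp*, *Aldoc*, *Pdk1*, *Egln3* and *Ankrd37*), against a background of 8.09%, and 4 were higher (*Pfkfb4*, *Pck1*, *Vegfa* and *Higd1a*), against a background of 6.56%. The 3 values of one genotype lay wholly apart from the 3 of the other in 12 members (32.4%), against 21.3% of all genes tested. There were 8 such members on the lower side, where the background was 12.6%, and 4 on the higher side, where it was 8.73%.

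The members as a whole were not shifted in one direction. The log2 difference (Zfp90ΔIEC minus Zfp90fl/fl, on the log2(FPKM + 1) scale throughout) was below 0 in 18 of 37 members (48.6%) and in 57.2% of all genes tested. Its median was 0.00 over the members and -0.02 over all genes tested. It lay within 0.2 of 0 in 27 members (73.0%) and within 0.4 of 0 in 35 (94.6%), against 81.8% and 95.3% of all genes tested. The median coefficient of variation of the members' FPKM was 6.94% in Zfp90fl/fl mice and 8.23% in Zfp90ΔIEC mice, close to the 6.88% and 8.31% over all genes tested. The summed FPKM of all 39 genes was 1721, 1822 and 1843 in Zfp90fl/fl mice and 1736, 1906 and 1898 in Zfp90ΔIEC mice, and the genotypes overlapped.

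**Figure D1:**
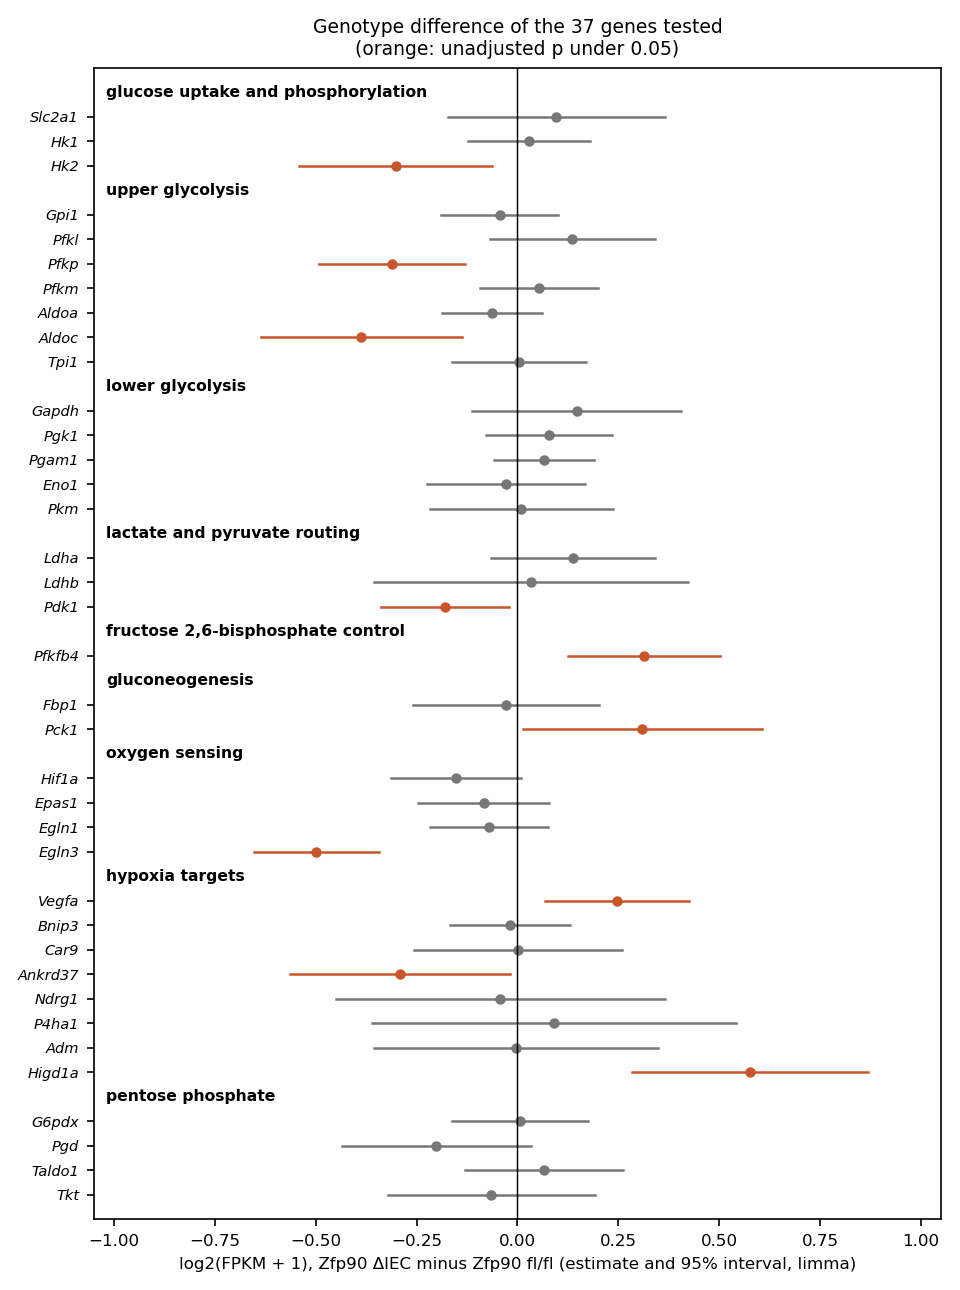
Difference of each of the 37 members tested, as log2(FPKM + 1) in Zfp90ΔIEC minus Zfp90fl/fl mice (horizontal axis), by subgroup, with the limma estimate as a point and its 95% confidence interval as a bar. Egln3 (-0.50) and Higd1a (0.58) lie farthest from 0 on either side, and most other members lie within 0.2 of it.

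Per transcript length, *Ldha*, *Aldoa* and *Gapdh* were the highest of the 39, with mean FPKM of 217, 192 and 187 over the 6 samples, and ranked 151st, 176th and 185th of all genes tested. *Ldha* encodes the main lactate dehydrogenase subunit, *Aldoa* the main aldolase and *Gapdh* the enzyme that oxidizes glyceraldehyde phosphate. Next came *Tpi1* (142), *Pgk1* (134), *Pkm* (125) and *Taldo1* (108). Over the 6 samples, the ranges of neighbors in this order overlapped in 31 of 38 pairs, and the breaks among the 12 genes over 50 FPKM lay between *Gapdh* and *Tpi1*, between *Taldo1* and *Gpi1* and between *Pgam1* and *Eno1*. At the other end, 10 members had a mean under 5 FPKM, among them *Ldhb*, the second lactate dehydrogenase subunit, at 1.94 FPKM and *Fbp1*, which encodes 1 of the fructose bisphosphatases of gluconeogenesis, at 1.04 FPKM. The other fructose bisphosphatase gene, *Fbp2*, is not among the 39 and was at 84.2 ± 0.317 and 85.4 ± 4.94 FPKM (SD, n = 3 each). *Slc16a3*, which encodes the lactate exporter MCT4, and *Pfkfb3*, which encodes a kinase and phosphatase of fructose 2,6-bisphosphate, stayed under 1 FPKM in all 6 samples and were not tested.

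**Figure D2:**
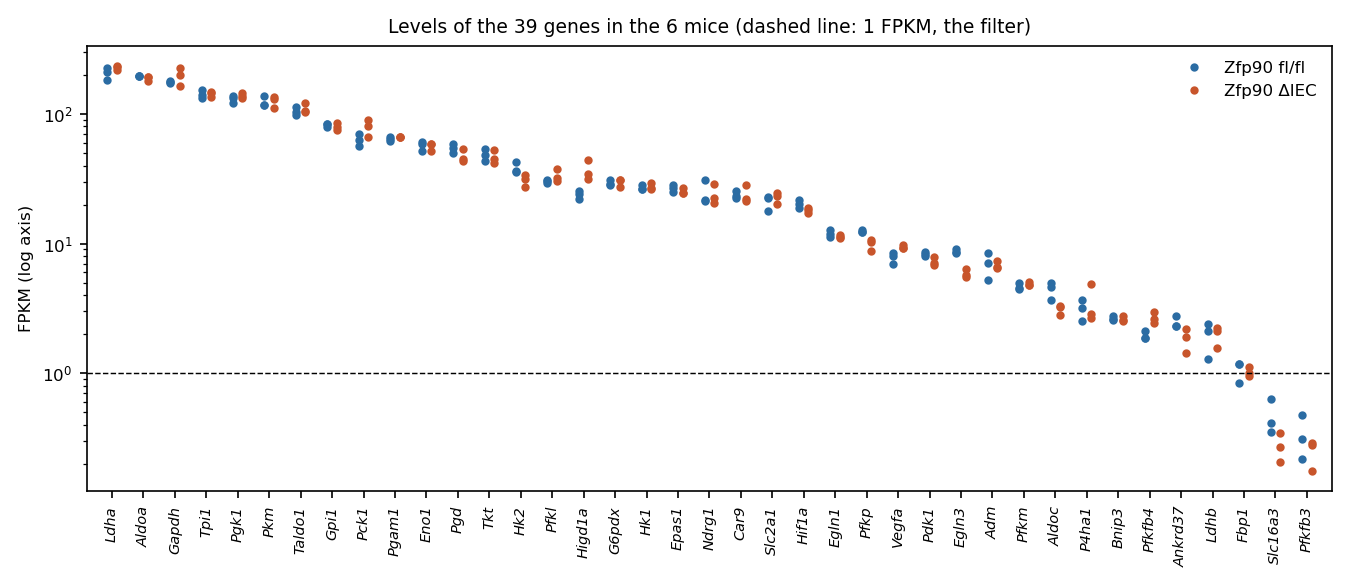
FPKM of all 39 members in each sample, on a log axis, ordered by the mean over the 6 samples, with Zfp90fl/fl and Zfp90ΔIEC mice in separate colors and a dashed line at 1 FPKM. Ldha, Aldoa and Gapdh stand at the left near 200 FPKM, and Slc16a3 and Pfkfb3 at the right lie below the line in all samples.

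Glucose enters the cell through GLUT1, encoded by *Slc2a1*, and is trapped by hexokinases. *Hk2*, the isozyme most associated with tumors, was measured at 36.0, 35.8 and 42.9 FPKM in the Zfp90fl/fl mice (replicates 1, 2 and 3, in this order throughout) against 27.5, 31.2 and 33.8 FPKM in the Zfp90ΔIEC mice. All 3 Zfp90ΔIEC values lay below the lowest Zfp90fl/fl value, by 2.01 FPKM at the closest. *Hk2* had a log2 difference of -0.30 (standard error 0.101, 95% confidence interval -0.54 to -0.06, adjusted p = 0.256 from limma). *Hk1*, the more widely expressed isozyme, was at 26.9 ± 1.11 FPKM and 27.5 ± 1.60 FPKM (SD, n = 3 each) with overlap, and *Slc2a1* was at 21.2 ± 2.84 and 22.6 ± 2.16 FPKM with overlap.

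A further hexokinase gene outside the list, *Hkdc1*, had the largest positive difference among the related genes examined. Its FPKM was 4.88, 5.39 and 5.47 in Zfp90fl/fl mice and 7.06, 12.5 and 9.83 in Zfp90ΔIEC mice, with no overlap and with the spread mostly among the latter. The log2 difference of *Hkdc1* was 0.76 (standard error 0.175, 95% confidence interval 0.35 to 1.18, adjusted p = 0.129 from limma), which did not pass. *Hk2* made up 53.6%, 51.6% and 57.6% of the summed FPKM of *Hk1*, *Hk2* and *Hkdc1* in Zfp90fl/fl mice and 44.9%, 42.7% and 48.3% in Zfp90ΔIEC mice. *Hkdc1* made up 7.25%, 7.77% and 7.34% in the former and 11.5%, 17.2% and 14.0% in the latter. Neither share overlapped between genotypes, and shares were described without a test. Without *Hkdc1*, the share of *Hk2* in *Hk1* and *Hk2* was 58.6% ± 3.15 and 52.8% ± 2.93 (SD, n = 3 each), and its ranges overlapped.

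In upper glycolysis, the members with an unadjusted p under 0.05 were *Pfkp* and *Aldoc*, neither of them the main isozyme of its step. *Pfkp*, the platelet-type phosphofructokinase gene, was at 12.3, 12.4 and 12.8 FPKM in Zfp90fl/fl mice and 8.80, 10.2 and 10.6 FPKM in Zfp90ΔIEC mice. The Zfp90fl/fl mice lay close together and above all Zfp90ΔIEC mice. *Pfkp* had a log2 difference of -0.31 (standard error 0.0761, 95% confidence interval -0.49 to -0.13, adjusted p = 0.137 from limma). *Pfkl*, the liver-type gene and the main one here, was at 30.2 ± 0.654 and 33.4 ± 3.97 FPKM, and *Pfkm*, the muscle-type gene, at 4.65 ± 0.261 and 4.86 ± 0.176 FPKM (SD, n = 3 each), both with overlap. The summed FPKM of the 3 phosphofructokinase genes was 47.3 ± 0.699 and 48.1 ± 4.36 (SD, n = 3 each). Within that sum, *Pfkp* took 26.3%, 26.2% and 26.6% in Zfp90fl/fl mice and 19.9%, 19.3% and 22.5% in Zfp90ΔIEC mice, without overlap.

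Aldolase mRNA came almost wholly from 1 of its genes. *Aldoc*, the brain-type aldolase gene, was at 3.66, 4.61 and 4.93 FPKM in Zfp90fl/fl mice and 2.80, 3.22 and 3.32 FPKM in Zfp90ΔIEC mice. These ranges did not overlap, and the log2 difference of *Aldoc* was -0.39 (standard error 0.105, 95% confidence interval -0.64 to -0.14, adjusted p = 0.173 from limma). *Aldoa*, which supplied nearly all of the aldolase mRNA, was at 196, 197 and 196 FPKM in Zfp90fl/fl mice and 179, 193 and 192 FPKM in Zfp90ΔIEC mice. The ranges were apart, but the difference was small next to the level, with a log2 difference of -0.06 (95% confidence interval -0.19 to 0.06, adjusted p = 0.637 from limma). Under median ratio scaling the *Aldoa* ranges overlapped. *Gpi1*, which encodes glucose phosphate isomerase, was at 82.2 ± 2.30 and 79.8 ± 4.62 FPKM, and *Tpi1*, which encodes triose phosphate isomerase, at 142 ± 9.72 and 143 ± 6.94 FPKM (SD, n = 3 each), both with overlap.

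**Figure D3:**
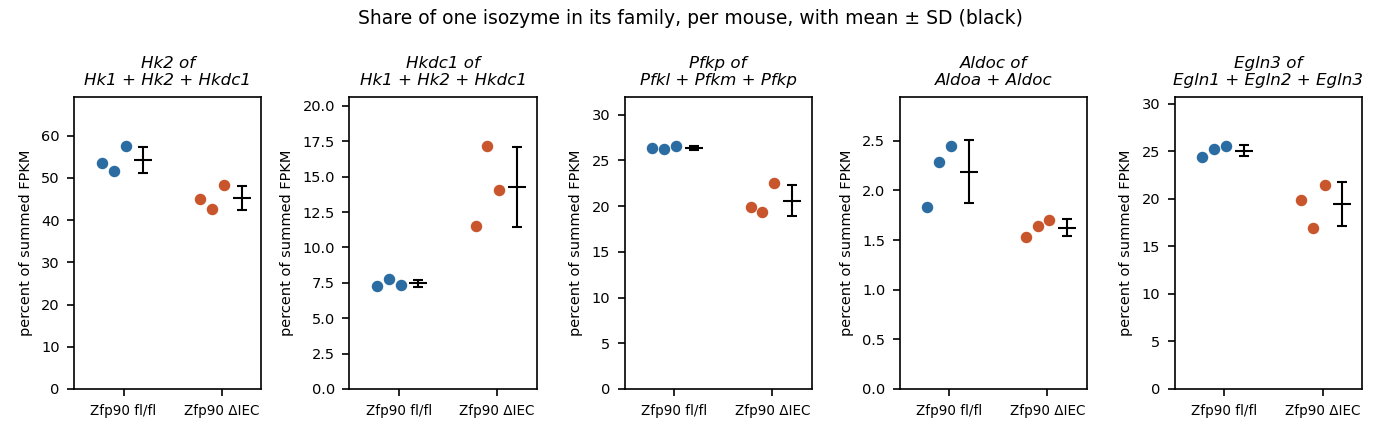
Share (percent of summed FPKM) that Hk2, Hkdc1, Pfkp, Aldoc and Egln3 took of their isozyme family in each mouse, with the mean and SD (n = 3) of each genotype beside the points. Hkdc1 was higher and the other 4 were lower in the Zfp90ΔIEC mice, with no overlap in any of the 5 panels.

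Lower glycolysis, from glyceraldehyde phosphate to pyruvate, held no member with an unadjusted p under 0.05. *Gapdh* was at 179.5, 176 and 174 FPKM in Zfp90fl/fl mice and at 165, 200.5 and 225 FPKM in Zfp90ΔIEC mice. The Zfp90fl/fl mice agreed closely, while the Zfp90ΔIEC mice lay on either side of them. For *Gapdh* this gave a log2 difference of 0.15 (standard error 0.109, 95% confidence interval -0.11 to 0.41, adjusted p = 0.584 from limma). *Pgam1*, the phosphoglycerate mutase gene, was at 61.4, 63.6 and 66.2 FPKM and at 66.6, 66.9 and 66.7 FPKM, an arrangement without overlap in which the groups came within 0.366 FPKM. Its log2 difference was 0.07 (95% confidence interval -0.06 to 0.19, adjusted p = 0.611 from limma). The remaining enzymes, *Pgk1* (phosphoglycerate kinase), *Eno1* (enolase) and *Pkm* (pyruvate kinase), had log2 differences of 0.08, -0.03 and 0.01 with overlap. Summed over the 12 glycolytic genes from *Gpi1* to *Pkm*, the FPKM was 1024 ± 29.6 and 1044 ± 69.9 (SD, n = 3 each).

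Pyruvate is reduced to lactate by lactate dehydrogenase or enters the mitochondrion, where pyruvate dehydrogenase kinases restrain its oxidation. *Ldha* was at 207 ± 22.02 FPKM in Zfp90fl/fl mice and 227 ± 8.85 FPKM in Zfp90ΔIEC mice (SD, n = 3 each), with overlap and a log2 difference of 0.14 (95% confidence interval -0.06 to 0.34, adjusted p = 0.516 from limma). *Pdk1*, a kinase gene known as a HIF-1 target, was at 8.08, 8.37 and 8.59 FPKM in Zfp90fl/fl mice and at 6.79, 7.13 and 7.86 FPKM in Zfp90ΔIEC mice. No Zfp90ΔIEC mouse reached the lowest Zfp90fl/fl value, and the log2 difference of *Pdk1* was -0.18 (standard error 0.0669, 95% confidence interval -0.34 to -0.02, adjusted p = 0.294 from limma). Its ranges overlapped after quantile normalization. *Pdk4*, a related kinase gene outside the list that is known to follow fasting and fatty acid use, stood on the opposite side, at 7.86, 5.48 and 7.51 FPKM against 12.2, 10.4 and 9.82 FPKM. The log2 difference of *Pdk4* was 0.58 (standard error 0.135, 95% confidence interval 0.26 to 0.90, adjusted p = 0.131 from limma), which did not pass. Among the lactate transporters, *Slc16a3* was listed at 0.353 to 0.637 FPKM and at 0.205 to 0.342 FPKM, without overlap. *Slc16a1*, outside the list, was at 82.6 ± 1.73 and 94.7 ± 3.16 FPKM (SD, n = 3 each). It was higher in Zfp90ΔIEC mice, also without overlap, with a log2 difference of 0.19 (95% confidence interval 0.07 to 0.32, adjusted p = 0.170 from limma).

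Fructose 2,6-bisphosphate stimulates phosphofructokinase, and gluconeogenesis runs against glycolysis. *Pfkfb4*, which encodes an enzyme that makes and degrades this metabolite, was at 2.12, 1.86 and 1.86 FPKM in Zfp90fl/fl mice and at 2.60, 2.94 and 2.44 FPKM in Zfp90ΔIEC mice. Every Zfp90ΔIEC mouse was above every Zfp90fl/fl mouse, with a log2 difference of 0.31 (standard error 0.0795, 95% confidence interval 0.12 to 0.50, adjusted p = 0.146 from limma). *Pck1*, which encodes cytosolic phosphoenolpyruvate carboxykinase, was at 69.7, 62.6 and 56.6 FPKM and at 89.7, 66.0 and 80.0 FPKM. Zfp90ΔIEC replicate 2 lay within the Zfp90fl/fl range and the other two lay above it. The log2 difference of *Pck1* was 0.31 (standard error 0.125, 95% confidence interval 0.01 to 0.61, adjusted p = 0.325 from limma). *Fbp1* was at 1.07 ± 0.203 and 1.02 ± 0.0905 FPKM (SD, n = 3 each) and passed the filter with 3 samples.

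All 4 oxygen-sensing genes had a lower mean in Zfp90ΔIEC mice, and 1 of them had an unadjusted p under 0.05. *Egln3* encodes the prolyl hydroxylase PHD3, which marks HIF proteins for degradation and is itself a HIF target, and lies at chr12:54178981-54203860 on the minus strand of GRCm38. It was measured at 8.55, 9.03 and 8.47 FPKM in the Zfp90fl/fl mice against 5.74, 5.52 and 6.33 FPKM in the Zfp90ΔIEC mice. The groups were far apart compared with their spread, the highest Zfp90ΔIEC value being 2.14 FPKM under the lowest Zfp90fl/fl value. With a log2 difference of -0.50 (standard error 0.0657, 95% confidence interval -0.65 to -0.34), *Egln3* came nearest to the threshold of all members without passing it (adjusted p = 0.0545 from limma). Its mean FPKM differed by -32.5%.

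*Egln1*, which encodes the main hydroxylase PHD2, was at 11.9 ± 0.747 and 11.3 ± 0.245 FPKM (SD, n = 3 each), with a log2 difference of -0.07 and overlap. *Egln3* took 24.4%, 25.2% and 25.6% of the summed FPKM of *Egln1*, *Egln2* and *Egln3* in Zfp90fl/fl mice and 19.9%, 16.9% and 21.4% in Zfp90ΔIEC mice. The factor gene *Hif1a* was at 18.8, 20.3 and 21.6 FPKM in Zfp90fl/fl mice and at 18.3, 17.3 and 18.7 FPKM in Zfp90ΔIEC mice, groups that came within 0.136 FPKM of each other without overlap. Under median ratio scaling the *Hif1a* ranges overlapped, and its log2 difference was -0.15 (standard error 0.068, 95% confidence interval -0.31 to 0.01, adjusted p = 0.368 from limma). *Epas1*, which encodes HIF-2α, was at 26.7 ± 1.69 and 25.1 ± 1.33 FPKM (SD, n = 3 each) with overlap. HIF proteins are regulated mainly after translation, so that these mRNA levels give no measure of their activity. The summed FPKM of the 4 genes was 68.3, 68.1 and 66.2 in Zfp90fl/fl mice and 59.6, 58.7 and 62.8 in Zfp90ΔIEC mice.

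The 8 genes known as targets of low oxygen did not move together. *Higd1a*, which encodes a small mitochondrial inner membrane protein, had the largest difference of all members. It lies at chr9:121848563-121858362 on the minus strand of GRCm38 and was at 22.3, 24.3 and 25.4 FPKM in Zfp90fl/fl mice and at 31.5, 44.0 and 34.3 FPKM in Zfp90ΔIEC mice. All 3 Zfp90ΔIEC mice lay above the Zfp90fl/fl range, replicate 2 the farthest, and the log2 difference of *Higd1a* was 0.58 (standard error 0.124, 95% confidence interval 0.28 to 0.87, adjusted p = 0.119 from limma). *Vegfa*, the vascular endothelial growth factor gene, was at 8.06, 6.99 and 8.44 FPKM and at 9.77, 9.31 and 9.27 FPKM. Its groups were apart as well, with a log2 difference of 0.25 (standard error 0.0754, 95% confidence interval 0.07 to 0.42, adjusted p = 0.216 from limma).

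*Ankrd37*, an ankyrin repeat gene known as a HIF-1 target, lay on the opposite side, at 2.30, 2.31 and 2.75 FPKM in Zfp90fl/fl mice and 1.89, 1.43 and 2.19 FPKM in Zfp90ΔIEC mice. The closest values of the groups differed by 0.106 FPKM, and the log2 difference of *Ankrd37* was -0.29 (standard error 0.115, 95% confidence interval -0.56 to -0.02, adjusted p = 0.318 from limma). The other 5 targets overlapped between genotypes and had log2 differences between -0.04 and 0.09. Among them, *Car9*, which encodes a carbonic anhydrase at the cell surface, was at 23.7 ± 1.46 and 23.9 ± 3.71 FPKM, and *Bnip3*, a mitophagy receptor gene, at 2.66 ± 0.105 and 2.61 ± 0.118 FPKM (SD, n = 3 each). *Ndrg1*, *P4ha1* (a collagen prolyl hydroxylase gene) and *Adm* (the adrenomedullin gene) had coefficients of variation of 7.18% to 34.7% within a genotype. Their 95% confidence intervals reached from -0.45 to 0.54 over the 3 genes, and differences within those limits were not excluded with 3 mice per genotype.

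The pentose phosphate genes gave no member with an unadjusted p under 0.05 and none without overlap. *Pgd*, which encodes 6-phosphogluconate dehydrogenase, was at 49.7, 58.6 and 54.7 FPKM in Zfp90fl/fl mice and at 43.5, 53.6 and 44.6 FPKM in Zfp90ΔIEC mice. Zfp90ΔIEC replicate 2 lay within the Zfp90fl/fl range and the other two lay below it, with a log2 difference of -0.20 (standard error 0.0989, 95% confidence interval -0.44 to 0.03, adjusted p = 0.410 from limma). *G6pdx*, which encodes the entry enzyme glucose 6-phosphate dehydrogenase, was at 29.4 ± 1.36 and 29.6 ± 2.19 FPKM (SD, n = 3 each). The genes of the non-oxidative branch, *Taldo1* (transaldolase) and *Tkt* (transketolase), had log2 differences of 0.07 and -0.06.

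**Figure D4:**
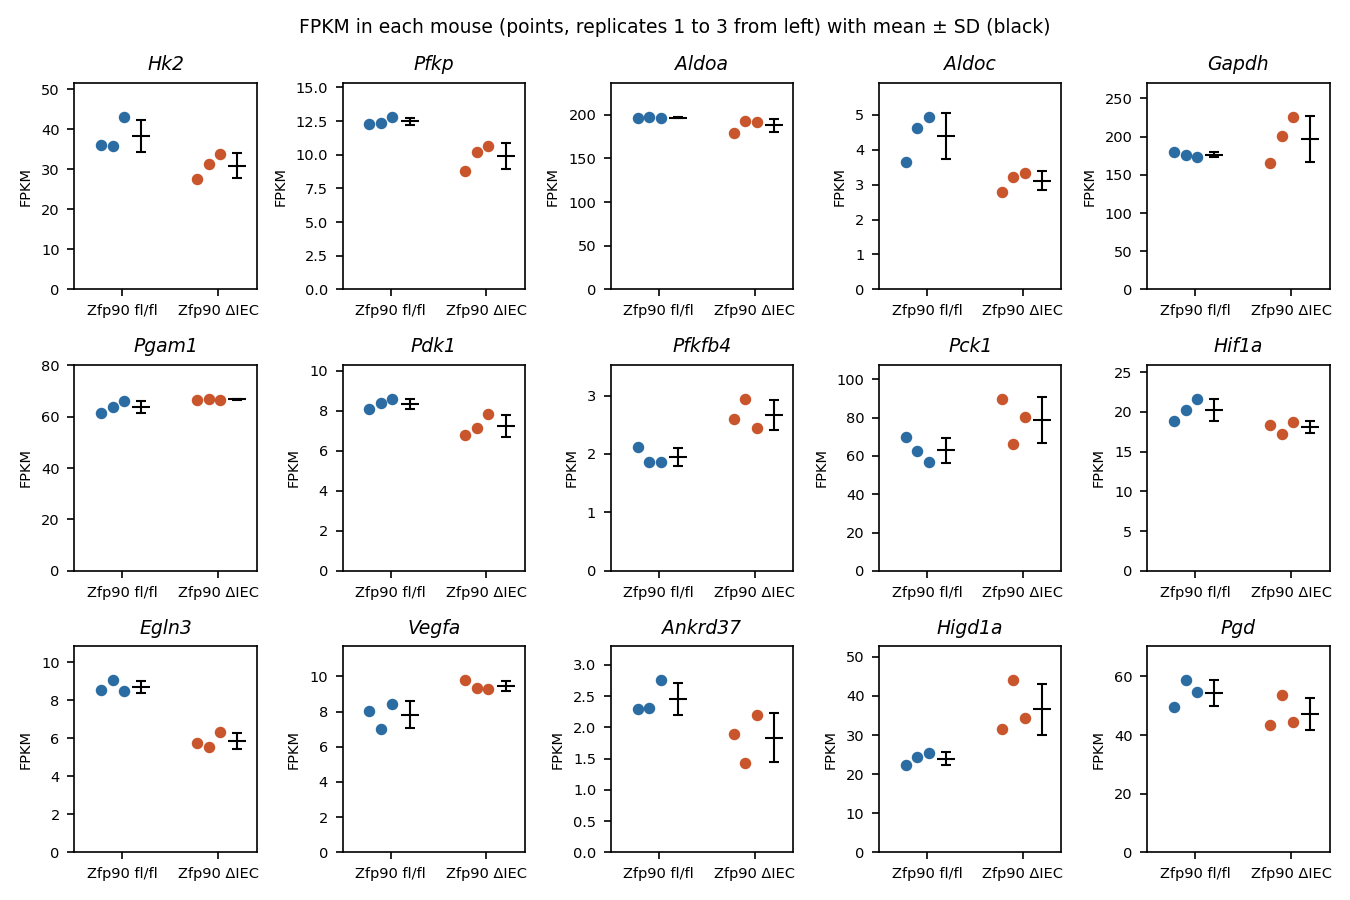
FPKM in each mouse (vertical axes, starting at 0) for the 15 members described with all 6 values, by genotype, with the mean and SD (n = 3) beside the points. Egln3, Pfkp and Higd1a show the genotypes apart, and Pck1, Gapdh and Pgd show them overlapping.

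HIF binds a short core that reads ACGTG or GCGTG, and promoter windows of the members were searched for both on both strands. Each window ran from 250 bases before to 50 bases after a gene start in RefSeq (GRCm38.p6). A gene can have several windows. A core was found in at least 1 window for 33 of the 37 members that had a window (89.2%), against 68.8% of the tested genes that had one and 46.7% of all genes that had one. A single window holds ACGTG in 19.6% and GCGTG in 32.4% of all windows, and ACGTG also lies within the CACGTG letters that other factors bind. A core was found in all 6 members with an unadjusted p under 0.05 and lower values and in 3 of the 4 with higher values. Among members with a window and an unadjusted p of 0.05 or more, 22 of 25 had a core. With a core in nearly all members, its presence could not tell the directions of the differences apart. None was found in the windows of *Gpi1*, *Tpi1*, *Fbp1* and *Pck1*, and there was no window for *Epas1* and *Ndrg1*. A match describes letters and is not a binding site. The 9 members with an unadjusted p under 0.05 and a core are shown to let both directions be compared, on the strand of the gene, with the core nearest the start in capitals (CACGT and CACGC are the cores on the opposite strand).
Hk2: aatgagcacatcCACGTcactgtccgggg, chr6:82774490-82774518, minus strand
Pfkp: cgctcgggcgggGCGTGggcggctcctgc, chr13:6648778-6648806, minus strand
Aldoc: ggaggtatctgtCACGCccccagggagtc, chr11:78323072-78323100, plus strand
Pdk1: ccgcctacggggGCGTGgttccagcgagg, chr2:71873210-71873238, plus strand
Egln3: tgtgcatctcagACGTGagatccaggttt, chr12:54204087-54204115, minus strand
Ankrd37: cagtgtttgggtACGTGaggccgcagcgg, chr8:45999840-45999868, minus strand
Pfkfb4: ttgacggatgggGCGTGcttagtccaaaa, chr9:108991773-108991801, plus strand
Vegfa: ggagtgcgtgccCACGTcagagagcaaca, chr17:46025358-46025386, minus strand
Higd1a: ccgcccaggcctCACGTct, chr9:121857747-121857765, minus strand
The first 6 of these members were lower and the last 3 higher in Zfp90ΔIEC mice, and the *Higd1a* stretch is shorter because its window ends there. A stretch can belong to another start than the outermost one of the gene. The *Vegfa* and *Ankrd37* stretches lie well inside their genes, whose outermost starts are at chr17:46032369 and chr8:46005707.

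Other genes of these pathways, 92 in all, were examined in the same fit, and 75 were tested, 1 of which stands in 2 of the 3 lists. None of the 75 passed in limma (0 with an adjusted p under 0.05), 21 had an unadjusted p under 0.05 (28.0%, against 14.6% of all genes tested), and 25 did not overlap (33.3%, against 21.3%). Of the 21, 11 were lower, where the background was 8.09%, and 10 higher, where it was 6.56%. Of the 38 tested in glycolysis and pyruvate use, 2 were lower and 5 higher at an unadjusted p under 0.05. In the pentose phosphate list, 2 of 13 were lower and 0 higher. In the hypoxia list, 7 of 25 were lower and 5 higher, and the medians of the log2 difference in the 3 lists were 0.05, -0.02 and -0.09.

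Besides *Hkdc1* and *Pdk4*, the largest difference among the glycolysis genes with an unadjusted p under 0.05 was that of *Gpd1*, which encodes cytosolic glycerol 3-phosphate dehydrogenase, at 11.2, 11.7 and 11.97 FPKM against 17.7, 14.6 and 13.4 FPKM. The groups did not overlap, and the log2 difference of *Gpd1* was 0.35 (standard error 0.0993, 95% confidence interval 0.12 to 0.59, adjusted p = 0.188 from limma). In the pentose phosphate list, *Idh1*, which encodes the NADPH-producing cytosolic isocitrate dehydrogenase, was at 80.8, 80.3 and 78.1 FPKM against 66.5, 69.0 and 66.2 FPKM. Its spread was small in both genotypes, and the log2 difference was -0.24 (standard error 0.0496, 95% confidence interval -0.36 to -0.13, adjusted p = 0.109 from limma). *Prps1*, which makes phosphoribosyl pyrophosphate from ribose phosphate, was at 7.66, 8.68 and 8.35 FPKM against 6.41, 6.85 and 6.86 FPKM, without overlap, with a log2 difference of -0.26 (adjusted p = 0.143 from limma).

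The hypoxia list held the largest difference of any gene examined. *Ak4*, which encodes a mitochondrial adenylate kinase, was at 2.68, 4.85 and 4.54 FPKM in Zfp90fl/fl mice and at 0.913, 1.91 and 1.23 FPKM in Zfp90ΔIEC mice. Each Zfp90ΔIEC mouse was below each Zfp90fl/fl mouse, and replicate 1 was the lowest in both genotypes. The log2 difference of *Ak4* was -1.09 (standard error 0.217, 95% confidence interval -1.60 to -0.57, adjusted p = 0.102 from limma), and the gene reached 1 FPKM in 5 of 6 samples. *Nfil3*, a transcription factor gene, was at 25.6, 30.0 and 29.4 FPKM against 20.5, 19.4 and 22.3 FPKM, without overlap, with a log2 difference of -0.43 (standard error 0.0823, 95% confidence interval -0.63 to -0.24, adjusted p = 0.0927 from limma). Of the related genes tested, *Ero1l* had the smallest adjusted p (0.0681 from limma), which did not pass. It was at 15.3 ± 0.246 FPKM in Zfp90fl/fl mice and 11.8 ± 0.550 FPKM in Zfp90ΔIEC mice (SD, n = 3 each), without overlap. The log2 difference of *Ero1l* was -0.36 (95% confidence interval -0.49 to -0.22). *Fam162a*, a HIF-1-responsive gene of a mitochondrial protein, lay on the opposite side at 116, 150.5 and 132 FPKM against 153, 223 and 184 FPKM. Its groups were 2.18 FPKM apart at the closest, and the log2 difference was 0.48 (standard error 0.153, 95% confidence interval 0.12 to 0.84, adjusted p = 0.233 from limma).

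**Figure D5:**
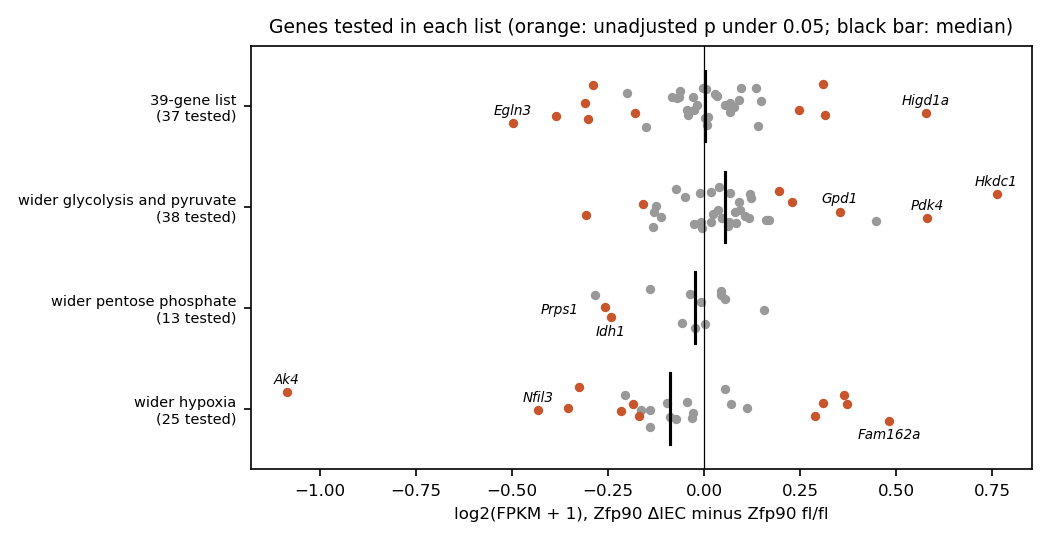
Log2(FPKM + 1) difference, Zfp90ΔIEC minus Zfp90fl/fl, of each gene tested in the 39-gene list and in 3 lists of related genes, with an unadjusted p under 0.05 in orange and the list median as a black bar. The medians lie between -0.09 and 0.05, with Hkdc1 farthest to the right and Ak4 farthest to the left.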

How the data were processed

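RNA-seq of EDTA-released colon epithelium was available for 6 samples, grouped by title into Zfp90fl/fl (n = 3) and Zfp90ΔIEC (n = 3). The authors deposited an FPKM per Ensembl gene in 1 file per sample. The labels' processing notes name STAR 2.5, Cuffnorm and mm9, whereas the paper names TopHat, Cuffdiff and a human genome. The rows are mouse identifiers, and how reads shared with pseudogene copies of genes such as *Gapdh*, *Pgk1* or *Ldha* were assigned is not given in the sources used here. A second row with the symbol *Aldoa*, at 0.369 to 0.753 FPKM, was not used. Of 52550 identifiers, 52403 had a symbol. Coordinates come from GENCODE M21 on GRCm38, another build than mm9.

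FPKM are no counts. From the deposited FPKM, log2(FPKM + 1) was computed and tested for genotype with limma 3.58.1 (lmFit, eBayes with trend) in R 4.3.3, two-sided, with Benjamini-Hochberg adjustment over 11564 genes, those reaching 1 FPKM in 3 or more samples. This scale understates differences of genes with low values. The threshold was an adjusted p under 0.05. P-values measure the spread between these samples, which may be partly technical. Sums and shares have no test. Of the values examined for depth, 53.0% to 57.0% lay within 10% of a whole fragment at the estimate, against about 17% at other depths, which did not recover whole reads for nearly all genes, so that no count test was run. The fit was tested on simulated data.

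The members and gene lists were chosen with earlier results of these data known. Members were given all 6 values if their unadjusted p was under 0.05, their genotypes did not overlap, or their log2 difference was the largest of their subgroup. From each related list the 3 genes with the largest log2 difference among those with an unadjusted p under 0.05 were named, or 2 where there were only 2. *Hk1*, *Slc16a1*, *Ero1l* and other genes beside them were named for comparison after their values were seen. The alternatives were quantile normalization, median ratio scaling, a pseudocount of 0.1, testing without the filter, a replicate block and leaving out each sample. Figures were drawn in matplotlib 3.10.9, and tables were built in Python 3.11.15 using numpy 2.4.6 and pandas 2.3.3.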

Additional observations from a re-analysis of the deposited data

How the results depend on the processing

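No member passed under any of the 11 alternatives. *Egln3* kept a log2 difference of -0.56 to -0.46, with an adjusted p of 0.0545 to 0.163 from limma. Over the same alternatives, members without overlap numbered 10 to 17. When 1 sample was left out they were 35.1% to 45.9% of members, against 30.3% to 36.2% of all genes tested. Members with a negative difference numbered 15 to 22, and the median difference of the members lay between -0.03 and 0.03. Of 253 values for the 23 genes chosen by the stated rules, 252 kept their direction and their side of the threshold. The exception was *Ak4*, which passed with the replicate block (adjusted p = 0.0403 from limma), so that 1 related gene passed there instead of 0. The number of genes called among all tested was 23, and 13 with a pseudocount of 0.1, 15 without the filter, 47 with the replicate block and 10 to 21 when 1 sample was left out, the lowest without Zfp90fl/fl replicate 2. The cause was not tested. Samples with the same number correlated at 0.194, 0.110 and 0.078 in their deviations from the group means, each higher than with the other numbers, but the labels do not say what a number marks, and the samples were not taken as paired. The count without overlap has no value under the block. With 3 mice per genotype, intervals of the members reached as far as 0.87 on the log2 scale, and a missed threshold does not show that levels were alike.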

Other observations

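The same replicate number was the highest of both genotypes in 26 of the 37 members tested (70.3%), against 41.3% of all genes tested, a description with no test. By number, these were 10 members in replicate 2 (27.0%, against 15.4% of all genes), 12 in replicate 3 (32.4%, against 9.29%) and 4 in replicate 1 (10.8%, against 16.7%). Of the 4 pentose phosphate genes, *Pgd*, *Taldo1* and *Tkt* were highest in replicate 2 and *G6pdx* in replicate 3, as were *Hk2*, *Pfkp*, *Aldoc*, *Ldha* and *Hif1a*. Replicate 1 was the lowest of both genotypes in 17 members (45.9%), against 17.3% of all genes.

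*Gapdh*, often used as a reference gene, had a coefficient of variation of 1.71% in Zfp90fl/fl mice and 15.3% in Zfp90ΔIEC mice, where the median over all genes tested was 6.88% and 8.31%. For *Pgam1* the order was the opposite, with 3.81% and 0.235%.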
